A study of Mus musculus with 8 samples.

Results

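The cytosolic ribosomal protein genes were followed across progenitors of wild-type and ACKR1-deficient mice. They were chosen by name alone: a probe belonged to them if its RefSeq transcript was that of a gene with an Rpl or Rps symbol, or of Rplp0, Rplp1, Rplp2, Rpsa or Fau, with the Rps6k kinases and pseudogenes left out. The rule itself uses no measured value, but the members were chosen with earlier results of these data known. Of 20145 genes with a symbol on the array, 84 were members, measured by 171 of 55681 probes. They comprised 51 genes of the large and 33 of the small ribosomal subunit, and 7 of the 84 were paralogues of another member (Rpl3l, Rpl7l1, Rpl10l, Rpl22l1, Rpl39l, Rps4l and Rps27l). A further 6 symbols that fit the rule (Rps23, Rps12l1, Rpl6l, Rpl32l, Rps3a2 and Rps3a3) were matched to no probe. All 84 genes had a probe that passed the filter on dim signals, and 80 were well above background on all 8 arrays.

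Ribosomal proteins surround the ribosomal RNAs and are made in nearly equal numbers, since each ribosome holds a single copy of most of them. Their mRNAs share a pyrimidine tract at the 5′ end (the TOP tract), through which the mTOR pathway adjusts their translation as a group. Blood formation is sensitive to their supply: loss of a single copy of RPS19 and of several others causes Diamond-Blackfan anaemia, a failure of red cell production, and haematopoietic stem cells keep a lower rate of protein synthesis than their progeny.

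The 8 arrays formed 4 groups of 2: LSK cells and GMP cells, each from wild-type and from ACKR1-deficient (KO) littermates, all female, 12 weeks old and on a C57Bl/6J background after more than 12 generations of backcrossing. ACKR1 is an atypical receptor that binds chemokines without signalling through G proteins. Cells were sorted from bone marrow, LSK as lineage-negative, Sca1-positive and cKit-positive, and GMP (granulocyte-macrophage progenitors) as lineage-negative, Sca1-negative and positive for cKit, CD34 and CD16/32. The labels do not say which cells lacked the receptor, how the allele was made or whether replicates came from different mice. The p-values therefore speak of the spread among the arrays at hand, part or all of which may be technical. A level is the log2 of a probe signal less the 75th percentile of log2 signals on that array, a difference is one of log2 levels, and genotype differences are deficient minus wild type.

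On 7 arrays 62.5% to 73.1% of the spots were well above background, and on deficient LSK replicate 2 it was 34.3%. That array and deficient GMP replicate 1 stood apart from their replicates, with correlations over all features of 0.780 between the deficient LSK arrays and 0.898 between the deficient GMP arrays, against 0.948 and 0.976 in wild type. Many values moved by over 1.5 times when either was left out, and the main ones are given without it as well. Genotype went with the column of the slide (deficient in column 1, wild type in column 2), so the pair cannot be told apart. The only Ackr1 probe lay between −1.05 and −0.07 on all arrays and did not separate the genotypes; where it lies relative to the deleted part is not given in the sources used here, so it does not check the labels. Elane, a granule protease of GMP cells, was 1.1 and 2.08 on the wild-type LSK arrays against 8.86 and 8.32 on the GMP arrays (limma adjusted p = 0.00353), whereas Ly6a, which encodes the Sca1 of the LSK gate, was 1.83 and 3.79 against 2.83 and 3.11 and did not separate the sorts. In deficient cells Elane was 2.76 and 3.98 (LSK) against 6.18 and 6.99 (GMP), and Ly6a was 0.37 and −1.07 (LSK) against −0.17 and 2.24 (GMP).

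Markers of other cell types moved with genotype. Of 11 measured neutrophil granule genes, 8 were called higher in deficient LSK and 7 in deficient GMP, and their summed level (log2) ranged in LSK from 2.02 to 3.49 (wild type) and 10.5 to 11.7 (deficient), and in GMP from 3.32 to 4.26 and 10.4 to 11.8. Of 12 erythroid genes, 5 were called higher in deficient LSK and 6 in deficient GMP, and their summed level was 4.06 to 5.81, 10.6 to 13.1, 2.85 to 3.79 and 10.6 to 11.6 in the same order. Of 8 B-lineage genes 1 was called higher in each deficient population, and of 6 T and NK and 7 megakaryocyte genes 0 were (limma; at an unadjusted p under 0.05, 2 and 0 were higher in LSK and 1 and 4 in GMP, and 1 megakaryocyte gene was lower in GMP). Markers of the sorted populations themselves also differed. The 10 of LSK had a median difference of −1.12 in LSK (9 below 0) and 0.46 in GMP (8 above 0), with 0 called in either. Without deficient LSK replicate 2 their LSK median was −0.64. The 10 of GMP had medians of 0.51 in LSK (6 above 0) and −1.17 in GMP (7 below 0). Limma called 1 of them higher in LSK (0.239% of all features were called) and 0 in GMP (0.146%). None of these lists had all its genes below background on any array. Their part in the values of the ribosomal protein genes was not tested.

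The starts of 63 of the 84 members were found in the RefSeq promoter table (build GRCm38.p6). The 30 bases around the start, 15 before it and 15 from it on, are shown for 7 members that are described in what follows: Rpl28, Rps19 and Rpl19, which were low on deficient GMP replicate 1, Rps15a and Rps21, which were high there, Rps24, which had the largest difference of any member probe between wild-type LSK and GMP, and Rps27l, which had the largest of any small-subunit gene. Capitals mark a C followed by at least 4 pyrimidines, read from the first such C within 10 bases of the listed start. Sequences read 5′ to 3′ on the strand of the gene. In Rpl19 and Rps27l the run of pyrimidines begins to the left of the capitals, outside those 10 bases.
Rpl28 (chr7:4792950-4792979, + strand): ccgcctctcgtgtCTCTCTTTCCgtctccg
Rps19 (chr7:24884577-24884606, + strand): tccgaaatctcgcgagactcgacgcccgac
Rpl19 (chr11:98026909-98026938, + strand): tgggctCTCCCCTTCgcagataatgggcgg
Rps15a (chr7:118116133-118116162, - strand): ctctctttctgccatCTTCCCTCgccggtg
Rps21 (chr2:180257364-180257393, + strand): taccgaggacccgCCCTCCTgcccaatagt
Rps24 (chr14:24490663-24490692, + strand): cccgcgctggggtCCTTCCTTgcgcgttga
Rps27l (chr9:66946071-66946100, + strand): ccactCCTCCCCgccgcctctatcccggaa
The Rps19 window shown holds no such tract, but another listed start of Rps19 does, so this gene is counted below as a member with a tract. Some of the other genes shown also have further listed starts.

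Such a tract lay at a listed start of 39 of the 63 members (61.9%), against 34.4% of all 27025 genes in the table and 30.7% of its 32851 promoters. CCGGAAG, the core bound by ETS family and GABP factors, was found on either strand from 250 bases before to 50 after the start of 26 members (41.3%, against 9.93% of all genes and 8.86% of promoters). AAGATGGC, the core of the YY1 motif, was found in 7 members (11.1%, against 3.19% and 2.75%), and TATAAA also in 7 (11.1%, against 15.7% and 13.6%). These are matches of letters, not measured sites. The median LSK difference was −1.16 in the members with a tract and −1.20 in those without, and the medians in GMP were 0.43 and 0.26, so members with and without the tract lay close together in LSK. Without deficient GMP replicate 1 the GMP medians were 0.0067 and 0.038.

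The probes of the ribosomal proteins gave some of the strongest signals: 78 of the 84 lay in the brightest 10% of the 28089 features tested and 49 in the brightest 1%. The median level over the 84 genes was 8.15 and 8.27 (wild-type LSK) against 7.01 and 6.83 (deficient LSK), and 8.73 and 8.4 (wild-type GMP) against 9.05 and 8.47 (deficient GMP). Both deficient LSK arrays lay below all others, and the other 3 groups overlapped or lay close together. By group means, 42 members had the order deficient LSK, wild-type LSK, wild-type GMP, deficient GMP from low to high, and 14 the same order with the GMP groups exchanged. The GMP groups, neighbours at the top of that order, overlapped in most members, as given with their comparison.

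**Figure D1:**
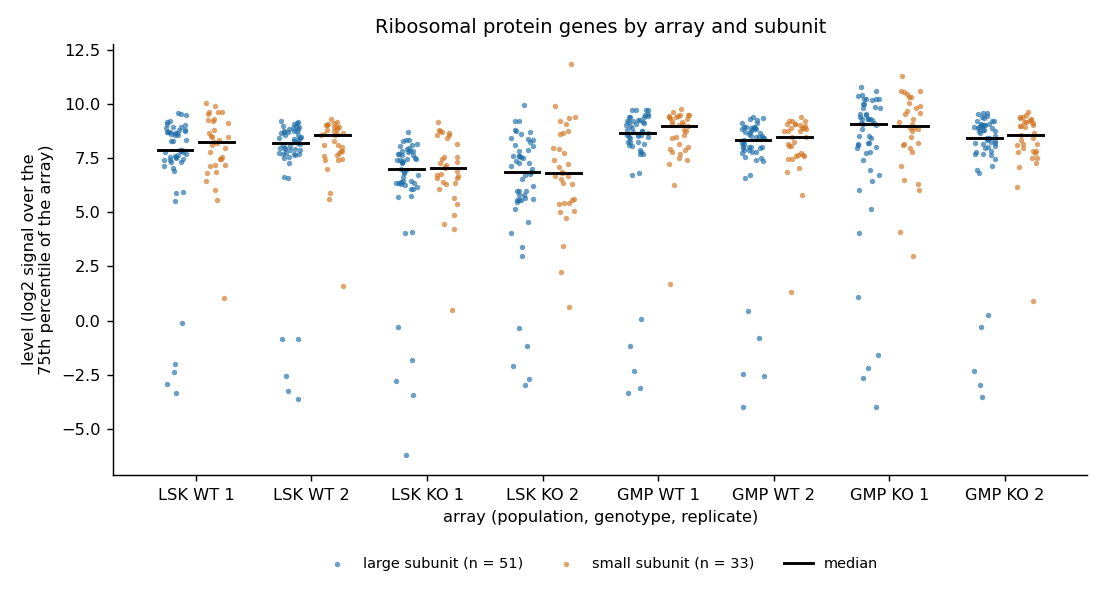
Level of each ribosomal protein gene (y axis, log2 relative to the 75th percentile of each array) on each of the 8 arrays (x axis), as points for the 51 large-subunit and 33 small-subunit genes, with a black bar at the median of each. The medians of both subunits lie at 7.02 or below on the deficient LSK arrays and at 7.85 or above on the other 6, and the points spread widely on deficient LSK replicate 2 and deficient GMP replicate 1; the points below 2 are 5 paralogues (Rpl3l, Rpl7l1, Rpl10l, Rpl39l and Rps4l) and Rpl21, apart from Rps4l on deficient GMP replicate 1, at 2.97.

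In LSK, the ribosomal protein genes as a group lay lower in the deficient samples: the difference was below 0 in 80 of 84, with a median of −1.11 against 0.11 over all features, of which 46.5% were below 0. A lower level was not particular to the members: the median was −0.85 over the brightest 10% of features without them. It was −1.23 over the 77 measured mitochondrial ribosomal protein genes (76 below 0). Without deficient LSK replicate 2 these medians were −0.50 and −0.72, and that of the members −1.11. None of the 84 was called by limma at an adjusted p under 0.05, where 0.239% of all features were called, and the smallest adjusted p was 0.436. At an unadjusted p under 0.05, 21 members passed, all lower, against 3.37% of all features in that direction. Both deficient arrays lay below both wild-type arrays in 65 of 84 members (21.1% of all features) and above them in 0 (16.4%). In sorted bulk samples, fewer cells of a type and less RNA per cell cannot be told apart, and the neutrophil and erythroid markers given above were higher on the same arrays.

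Rps28, Rpl27 and Rps29 were among the members with the smallest p-values. Rps28, a small protein near the mRNA exit site of the small subunit, was 8.67 and 8.78 (wild-type LSK) against 6.64 and 6.51 (deficient LSK). The groups did not overlap, and the difference was −2.15 (SE 0.62), with a limma adjusted p of 0.436. Rpl27, of the large subunit, was 7.84 and 7.87 (wild-type LSK) against 5.74 and 5.57 (deficient LSK). Its difference was −2.2 (SE 0.65), and the replicates of each genotype lay close together. Rps29, a zinc-binding protein of the small subunit, was 8.47 and 8.66 (wild-type LSK) against 6.57 and 6.68 (deficient LSK), with a difference of −1.94 (SE 0.62). Rps19 had the lowest difference of all members: it was 6.42 and 7.57 (wild-type LSK) against 4.86 and 2.26 (deficient LSK), a difference of −3.43 (SE 1.17) with an adjusted p of 0.522 from limma, and it was −2.14 without deficient LSK replicate 2. All 4 Rps19 values differed widely, and its error was the largest among these genes.

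Only 4 members lay above 0 in LSK, and none of them was called; Rpsa, Rpl10l and Rpl21 were among them. Rpsa, which also serves as a laminin receptor, was 9.52 and 8.92 (wild-type LSK) against 8.68 and 11.85 (deficient LSK). Rpl10l, a paralogue of Rpl10 known from testis, was −2.93 and −3.63 (wild-type LSK) against −3.45 and −1.17 (deficient LSK). In both, deficient LSK replicate 2 was the array that stood above the others, and without it the differences were −0.54 for Rpsa and −0.17 for Rpl10l. Rpl21 was −0.13 and −0.83 (wild-type LSK) against −0.31 and −0.36 (deficient LSK). Its difference of 0.14 lay within the spread of the arrays, and it was −0.037 under quantile normalization and −0.46 under median scaling. The other kept Rpl21 probe differed by −1.34 in LSK.

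The size of the LSK difference depended on the scaling. The median over all features was 0.11 here, −0.24 under quantile normalization, −0.49 under median scaling and 0.41 after normexp background correction. Relative to it, the members' median was −1.22, −0.41, −1.22 and −2.33 in the same order, and 78 to 82 of the 84 were below 0 under each. Without deficient LSK replicate 2, the weak array, the median was −1.11, 81 members were below 0 and 8 (9.52%) passed an unadjusted p under 0.05, against 3.93% of all features. Without deficient LSK replicate 1, the difference was called for Rps26 (−2.97, limma adjusted p = 0.0416) and Rpl23a (−3.07, 0.0452), which is 2.38% of the members against 10.1% of all features, and 29 (34.5%) passed at an unadjusted p, against 36.5% of all features. With that array left out, the members were thus called no more often than other features. Without wild-type LSK replicate 2, 79 of the 84 members were below 0, with wild-type LSK then resting on 1 array.

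Among proteins with a named role, the 3 of the P stalk, through which elongation factors are recruited, had a median LSK difference of −1.0. Rplp0 was 9.07 and 9.0 (wild-type LSK) against 8.16 and 7.58 (deficient LSK), and the difference was −1.16. Rplp1 differed by −1.0 and Rplp2 by −0.19, the latter by −1.51 without deficient LSK replicate 2. Rplp2 was 8.78 and 8.84 (wild-type LSK) against 7.3 and 9.94 (deficient LSK), so its deficient arrays lay on either side of wild type. Of the proteins that join 5S RNA and can bind Mdm2 to stabilise p53, Rpl5 differed by −1.38 and Rpl11 by −0.31, but without deficient LSK replicate 2 the values were −0.56 and −0.55. The members made as fusions with ubiquitin or a ubiquitin-like protein, Rps27a and Fau, differed by −0.21 and −0.5, and by −0.42 and −1.41 without that array. None of these was called.

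The 17 members mutated in Diamond-Blackfan anaemia had a median LSK difference of −1.48, with all 17 below 0. Limma called 0 of them, and 8 of the 17 passed an unadjusted p under 0.05, all lower (3.37% of all features in that direction). Without deficient LSK replicate 2 the median was −1.42, with all 17 below 0. They ranged from −3.43 for Rps19 to −0.031 for Rps24, both of which rest on that array: without it Rps24 was −0.71. Rps26 was 8.18 and 8.57 (wild-type LSK) against 6.92 and 5.4 (deficient LSK), a difference of −2.21 (SE 0.73), or −1.46 without that array. Rps7 was 7.15 and 7.71 (wild-type LSK) against 5.67 and 5.05 (deficient LSK), a difference of −2.07 (SE 0.72). In Rps26 and Rps7 each deficient array lay below each wild-type array. The median over all 84 members was −1.11, so these genes lay somewhat lower than the rest, a difference that was not tested.

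In GMP, the members lay nearer to the rest of the features: the median difference was 0.36 against 0.16 over all features, and 57 of 84 members lay above 0, where 59.4% of all features did. Limma called 0 members (0.146% of all features were called) and 0 passed an unadjusted p under 0.05 (4.83% of all features). The groups did not overlap in 9 of 83 members with deficient higher (20.1% of all features) and in 8 with deficient lower (19.5%), both shares below the background. Rpsa, the gene left out of these counts, had no usable spot on deficient GMP replicate 1, so its fitted values rest on the other 7 arrays. The direction relative to the median of all features depended on the scaling: the value was 0.20 here, −0.007 under quantile normalization, 0.20 under median scaling and −0.045 after normexp correction.

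The group median hid large differences of both signs on 1 array. Deficient GMP replicate 2 differed from the mean of the wild-type GMP arrays by a median of 0.035 over the 77 members that are not paralogues (SD 0.19 over genes), and deficient GMP replicate 1 by 0.72 over 76 (SD 1.30). Rpl28, of the large subunit, was 5.51 and 7.53 (wild-type LSK) against 4.03 and 2.96 (deficient LSK), and 8.06 and 7.79 (wild-type GMP) against 4.06 and 7.12 (deficient GMP). Rps19 was 7.86 and 7.64 (wild-type GMP) against 4.09 and 7.49 (deficient GMP). Deficient GMP replicate 1 thus lay more than 3 log2 units below its replicate for both. Rps15, which sits in the head of the small subunit, was 8.73 and 8.06 (wild-type GMP) against 6.02 and 7.98 (deficient GMP), and Rpl19 was 8.78 and 8.4 (wild-type GMP) against 6.02 and 8.44 (deficient GMP).

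The same array was high for other members. Rpl22l1, a paralogue of Rpl22, was 6.81 and 6.55 (wild-type GMP) against 9.4 and 6.95 (deficient GMP). Rps15a was 8.16 and 7.58 (wild-type GMP) against 9.89 and 8.12 (deficient GMP), and Rps21 was 6.27 and 5.79 (wild-type GMP) against 8.19 and 6.17 (deficient GMP). In each, deficient GMP replicate 1 stood well above the other 3 GMP arrays. Rpl21 was −1.18 and −0.79 (wild-type GMP) against 1.06 and −0.31 (deficient GMP). Its other kept probe, also dim, was −0.54 and −0.29 (wild-type GMP) against −2.53 and −0.82 (deficient GMP). The direction of Rpl21 on deficient GMP replicate 1 thus rested on the probe taken. The GMP differences were −2.34 for Rpl28, −1.96 for Rps19, −1.39 for Rps15 and −1.36 for Rpl19, and 1.49 for Rpl22l1, 1.36 for Rpl21, 1.15 for Rps21 and 1.13 for Rps15a. The adjusted p from limma was 0.955 or 0.956 for all 8. Without deficient GMP replicate 1 the differences were −0.81, −0.26, −0.42 and −0.15 for the first 4 and 0.27, 0.67, 0.14 and 0.24 for the others, in the same order. Without deficient GMP replicate 1 the median difference of the 84 members was 0.033, and without replicate 2 it was 0.73, with 13 members (15.5%) then at an unadjusted p under 0.05, against 18.2% of all features.

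**Figure D2:**
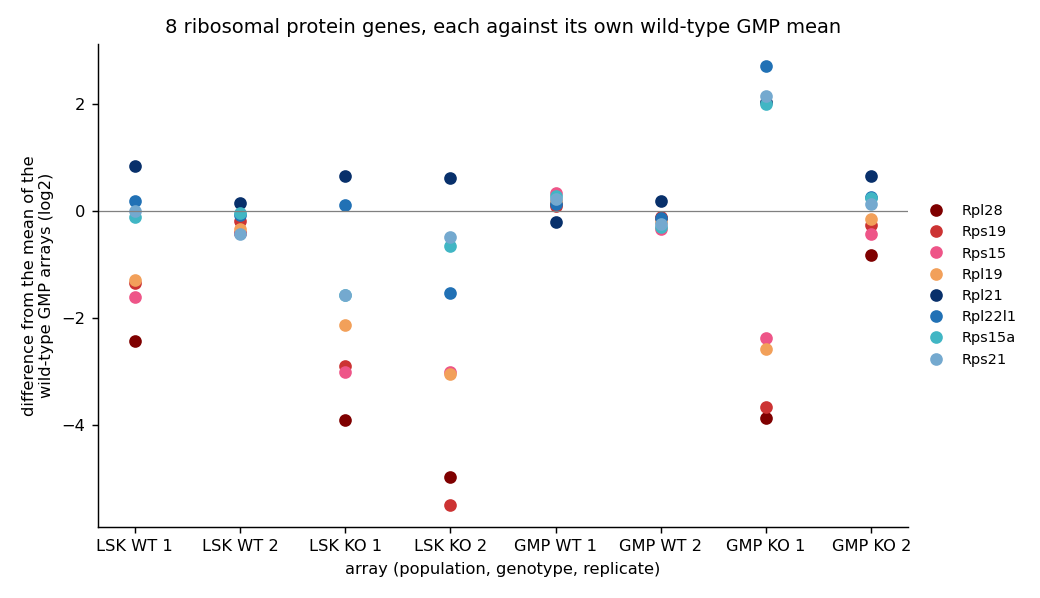
Level of 8 ribosomal protein genes on each array (x axis) as the difference from the mean of that gene's wild-type GMP arrays (y axis, log2): the 4 with the smallest p on either side of the GMP genotype comparison. On deficient GMP replicate 1, Rpl28, Rps19, Rps15 and Rpl19 lie at −2.37 or lower and the other 4 at 2.01 or higher, while on deficient GMP replicate 2 all 8 lie between −0.81 and 0.67. Rpl21 is shown at 1 of its 2 kept probes, and the other was low on deficient GMP replicate 1.

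The members that were low on that array were also low on other arrays, wild type included. Between the wild-type LSK arrays, Rpl28 differed by −2.02 (5.51 in replicate 1 and 7.53 in replicate 2), the lowest of the 77, and Rps20, a small-subunit protein, by 0.81, the highest. Rps15 and Rps19 were also lower in wild-type LSK replicate 1, at 6.79 and 6.42 against 7.99 and 7.57 in replicate 2. Over 76 members, the difference between the wild-type LSK arrays and that of deficient GMP replicate 1 from wild-type GMP had a Pearson r of 0.824 (Spearman rho 0.775). This is a description across genes, which are not independent; the pair of differences has no array in common, but all arrays share the probes and the scan. It is the highest of the correlations of this kind that were computed, and the others lay between 0.442 and 0.633. The SD over genes was 0.56 between the wild-type LSK arrays and 0.19 between the wild-type GMP arrays. A spread of this kind thus lay between the wild-type LSK replicates and hardly between the wild-type GMP replicates. Its cause was not tested.

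**Figure D3:**
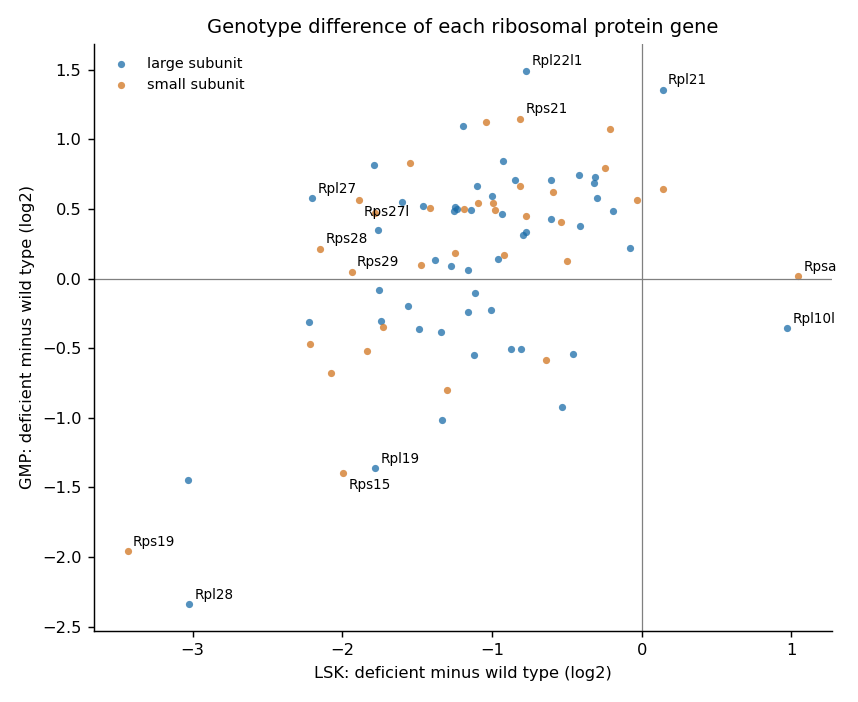
Difference between genotypes (deficient minus wild type, log2) of each ribosomal protein gene in LSK (x axis) and GMP (y axis), coloured by subunit. Nearly all points lie left of 0 on the x axis (80 of 84), they lie on both sides of 0 on the y axis (57 above), and Rpl28, Rps19, Rps15 and Rpl19 are low on both.

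Averaged over both populations, the median difference was −0.40 (0.17 over all features), limma called 0 members (0.602% of all features) and 11 passed an unadjusted p under 0.05, all lower (5.37% of all features). Rpl28 (−2.68), Rps19 (−2.70) and Rps15 (−1.69) were among those with the smallest p-values, with limma adjusted p from 0.284 to 0.366. Leaving out the pair of arrays that stand apart gave −1.65, −1.2 and −1.21. Without deficient GMP replicate 1 alone, the differences of these genes were −1.92, −1.85 and −1.21. The signed genotype difference was higher in GMP than in LSK, which is not a larger size, in 80 of 84 members (49.7% of all features), by a median of 1.34 (−0.007 over all features). For that interaction limma called 0 members and 0 features (0%), with 8 members at an unadjusted p under 0.05, all higher (1.41% of all features). Without deficient GMP replicate 1 it was above 0 in 81 members, with deficient GMP then resting on 1 array.

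In wild type, the ribosomal protein genes lay slightly higher in GMP than in LSK: the difference was above 0 in 71 of 84 members (50.8% of all features), with a median of 0.28 against 0.011. Limma called 0 of the 84 (1.86% of all features) and 0 passed an unadjusted p under 0.05 (8.4%). Both GMP arrays lay above both LSK arrays in 38 members (28.3% of all features) and below them in 0 (20.2%). Under quantile normalization the median was −0.020 and 39 members lay above 0, so that direction rested on the scaling. With replicate 1 of wild-type GMP left out it was 0.080, and with replicate 2 left out 0.49.

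The smallest p-values in that comparison were those of paralogues. Rps27l, a paralogue of Rps27 that p53 can induce, was 5.56 and 5.89 (wild-type LSK) against 4.23 and 3.45 (deficient LSK), and 7.22 and 6.84 (wild-type GMP) against 8.12 and 7.07 (deficient GMP). In both genotypes each GMP array lay above each LSK array, by 1.3 (SE 0.68) in wild type and 3.76 (SE 0.68) in deficient cells, with limma adjusted p of 0.726 and 0.140. Rpl7l1, a homologue of Rpl7 that acts in ribosome assembly, was −1.99 and −0.86 (wild-type LSK) against −1.84 and −2.08 (deficient LSK), and 0.071 and 0.45 (wild-type GMP) against −1.58 and 0.26 (deficient GMP). Its wild-type difference was 1.69 (SE 0.78), with a limma adjusted p of 0.630, and deficient GMP replicate 1 lay among the LSK values. Rps12 and Rps20, on the other side, differed by −0.35 and −0.34, and Rpl3l and Rpl21, at low levels, by −0.48 and −0.5. The other kept probes of Rps12 and Rpl21 went the other way, by 0.25 and 0.13. Rpl22l1 differed by −0.068, and Rps4l, Rpl10l and Rpl39l by 0.17, 0.49 and 0.14.

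In deficient cells, the median difference between GMP and LSK was 1.58 (−0.069 over all features), and 82 of 84 members lay above 0 (48% of all features). The median was 1.43 over the features in the brightest 10% that are not members. It was 1.97 over the 77 measured mitochondrial ribosomal protein genes, all above 0. A shift of this size was thus not particular to the members. Limma called 0 members and 0 features (0%), with a smallest adjusted p of 0.140, and 44 members passed an unadjusted p under 0.05, all higher (9.61% of all features). The groups did not overlap in 70 of 83 members with GMP higher (18.4% of all features). Rpl27 was 5.74 and 5.57 (deficient LSK) against 9.27 and 8.3 (deficient GMP), a difference of 3.13 (SE 0.65), and Rps28 one of 2.79 (SE 0.62). This comparison shares the deficient LSK arrays with the genotype comparison in LSK. Without deficient LSK replicate 1, 16 members (19%) were called, against 15.2% of all features, and without deficient LSK replicate 2 or deficient GMP replicate 1, 0 were. After normexp correction 26 (31%) were called, against 2.91% of all features.

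A single member probe was called in any comparison when each of the 39099 kept probes was tested on its own (1.54% of the probes were called between wild-type GMP and LSK, 0.202%, 0.107% and 0.471% between genotypes in LSK, in GMP and in their average, and 0% in the others). It is 1 of 3 probes for Rps24, a small-subunit protein that acts in the processing of the 18S RNA precursor and whose mRNA is alternatively spliced near its 3′ end. The oligo sequence of the probe was not used here, so signal from a transcript form of Rps24 and signal from another RNA bound by the probe cannot be told apart. This probe, designed to the transcript NM_011297, was 9.59 and 9.02 (wild-type LSK) against 3.91 and 3.33 (wild-type GMP), and 8.29 and 9.29 (deficient LSK) against 7.96 and 5.88 (deficient GMP). It was high on all LSK arrays, low on both wild-type GMP arrays and in between on the deficient GMP arrays. The wild-type difference (GMP minus LSK) was −5.69 (SE 0.83), 51.6-fold lower in GMP, with a limma adjusted p of 0.0115, and both wild-type GMP arrays lay below both LSK arrays.

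The other Rps24 probes lay close together in the wild-type populations. The probe for NM_207635 was 9.62 and 8.93 (LSK) against 9.15 and 8.88 (GMP), a difference of −0.25 (SE 0.73). The probe for NM_207634 was 6.82 and 6.93 against 7.19 and 7.02, a difference of 0.24 (SE 0.64). Within each array, the NM_011297 probe minus the NM_207635 probe was −0.024 and 0.095 (wild-type LSK), −0.28 and −0.62 (deficient LSK), −5.24 and −5.56 (wild-type GMP), and −2.06 and −3.26 (deficient GMP). That ratio of a pair of probes on the same array is free of the scaling, and its 4 groups did not overlap.

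For the NM_011297 probe, GMP minus LSK in deficient cells was −1.87 (SE 0.83; limma adjusted p = 0.305), or −2.91 without deficient GMP replicate 1 and −0.83 without replicate 2, and the deficient GMP arrays lay above the wild-type GMP arrays by 3.30 (SE 0.83; adjusted p = 0.450 from limma). The difference between the genotypes' population effects was 3.82 (SE 1.17) and was not called, with an adjusted p of 0.975 from limma and an unadjusted one of 0.00875. The wild-type call was lost when any of the 4 wild-type arrays was left out, with values from −5.4 to −5.98 and adjusted p from 0.061 to 0.128; it held under all other alternatives run (adjusted p from 2.58e-05 to 0.0492, limma). Some of these alternatives could not alter the value. The mean of a gene's probes and every probe tested on its own repeat the same fit of this probe and are no check. The replicate block and leaving out a deficient array leave the wild-type difference at −5.69. The neutrophil and erythroid markers were also higher in the deficient GMP arrays, and their part in the difference there was not tested. The gene as a whole, taken at its brightest probe, gave a wild-type difference of −0.25, so this pattern is not in the values by gene above.

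**Figure D4:**
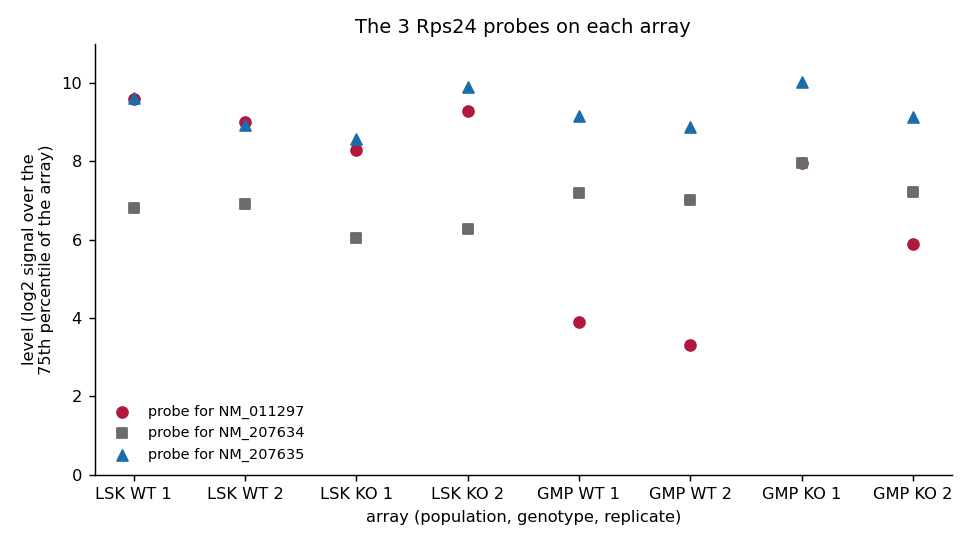
Level (y axis, log2 relative to the 75th percentile of each array) of the 3 Rps24 probes on each array (x axis), marked by the RefSeq transcript each was designed to. The NM_011297 probe lies near the NM_207635 probe on the 4 LSK arrays and falls to 3.91 and 3.33 on the wild-type GMP arrays, where the other probes stay near 7 and 9.

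Other genes with several probes agreed to differing degrees. Of 51 members with more than 1 kept probe, the probes disagreed in the sign of the difference in 7 in LSK, 28 in GMP, 12 between populations in wild type and 6 in deficient cells. In LSK 160 of 170 member probes lay below 0. The spread between probes of a gene had a median of 0.68 in LSK.

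The medians of the large and small subunits lay close together. In LSK the median genotype difference was −1.11 over the 51 large-subunit genes and −1.09 over the 33 small-subunit genes, in GMP 0.34 and 0.45 (0.030 and 0.035 without deficient GMP replicate 1), between wild-type populations 0.33 and 0.22, and between deficient populations 1.5 and 1.63. The median large-subunit level minus the median small-subunit level was −0.38 and −0.38 on the wild-type LSK arrays, −0.015 and 0.035 on the deficient LSK arrays, −0.30 and −0.13 on the wild-type GMP arrays, and 0.11 and −0.11 on the deficient GMP arrays. These are probe signals, so only the shift between groups can be read, not the balance itself. The shift in LSK was 0.39, with no overlap between groups (exact permutation test, two-sided p = 0.333, the smallest that 2 against 2 arrays allow). With the mean over the members that are not paralogues in place of the median, it was −0.014, and with the mean of a gene's probes −0.093, so a shift between subunits in LSK rested on the summary used.

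Genes that build or serve the ribosome lay on the same side in LSK, but by how much rested on deficient LSK replicate 2. Of 77 measured mitochondrial ribosomal protein genes, which form the separate ribosome of mitochondria, 76 lay below 0 with a median of −1.23. Ribosome biogenesis factors had a median of −1.16 (42 of 47 below 0), translation factors with TOP mRNAs one of −1.13 (17 of 18), and mTOR pathway and transcription regulators one of −0.71 (16 of 19). Of 6 measured small nucleolar RNA host genes 5 lay below 0 (median −1.69), and of 13 p53 response genes 11 (−0.54). Limma called 0 genes of these lists in LSK or GMP; at an unadjusted p under 0.05, 15 mitochondrial ribosomal proteins, 4 biogenesis factors, 1 translation factor, 2 regulators and 2 p53 response genes were lower in deficient LSK, against 3.37% of all features. In GMP 1 mitochondrial ribosomal protein, 1 biogenesis factor, 1 regulator and 3 p53 response genes passed it, against 4.83% of all features. The 2731 features in the brightest 10% that are not members had a median of −0.85. Without deficient LSK replicate 2 the medians were −0.72 for the mitochondrial ribosomal proteins (73 below 0), −0.37 for the biogenesis factors (39), −0.59 for the translation factors (15), −0.048 for the regulators (10), −0.38 for the host genes (4), −0.20 for the p53 response genes (8) and −0.50 for the bright features. Those of all features and of the 84 members were then −0.081 and −1.11.

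Between wild-type populations, the median of the cytosolic ribosomal proteins was 0.28. It was 0.95 for the mitochondrial ribosomal proteins (76 of 77 above 0), 0.96 for the biogenesis factors (44 of 47), 0.49 for the translation factors (16 of 18) 0.35 for the regulators, 0.16 for the host genes, −0.15 for the p53 response genes and 0.54 for the bright features that are not members. In GMP, the genotype medians were −0.14, −0.41 and 0.012 for the first 3 of these and 0.13 for the bright features, against 0.36 for the cytosolic ribosomal proteins. Without deficient GMP replicate 1 they were −0.20, −0.23, −0.20 and −0.17, against 0.033. Of these lists, 1 gene was called between wild-type populations: Mycn, a transcription factor that drives ribosome production, was lower in GMP (limma adjusted p = 0.00556), where only 1 of the 2 arrays measured it well above background, and it is named here after its values were seen. The differences between lists were not tested.

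**Figure D5:**
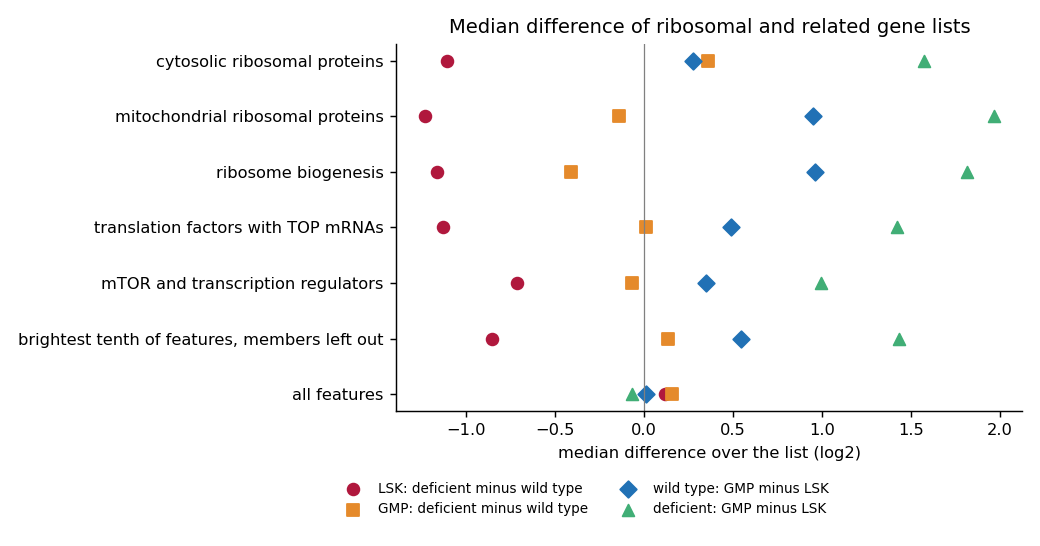
Median log2 difference (x axis) of the cytosolic ribosomal protein genes, of related gene lists, of the brightest 10% of features without the members, and of all features (rows), with 1 symbol for each of the 4 comparisons. In LSK the plotted lists and the bright features all lie between −1.23 and −0.71 while all features lie at 0.11, and between deficient populations they lie between 1.00 and 1.97 while all features lie at −0.069.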

How the data were processed

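RNA of sorted cells was labelled with Cy3 by a low-input amplification kit and hybridised to 1-colour Agilent arrays on 1 slide. Per the file headers, Agilent Feature Extraction 10.7.3.1, also named in the submitters' processing notes, gave the processed signal, a background-corrected intensity on a linear scale, on a design annotated on mm9. The authors' deposited table holds log2 values, which matched the scanner values after shifting to the 75th percentile and centring each probe (r from 0.999687 to 0.999965); its column medians were 0.12, −0.26, 0.041, 1.24, −0.13, −0.13, 0.31 and −0.11 (LSK wild type and deficient, then GMP). It was used as an alternative.

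Here, each array was scaled by subtracting the 75th percentile of its log2 processed signals. Control and outlier spots were left out, which leaves Rpsa without a value on deficient GMP replicate 1, and spots of a probe were averaged. Probes well above background on both arrays of any group were kept (39099 of 55681). Accessions were named through a RefSeq table (GRCm38.p6), and a gene was taken at its brightest probe, which gave 28089 features. Differences were tested with limma 3.58.1 (R 4.3.3; 4 group means over 8 arrays, 4 residual and 5.76 prior degrees of freedom), checked on simulated data, with p-values adjusted over all features by Benjamini-Hochberg and a threshold of 0.05. The number of arrays limits the precision. Figures were drawn with Python 3.11.15 and matplotlib 3.10.9.

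Named genes were the 4 with the smallest p on each side of the genotype comparisons and of the wild-type population comparison, the role groups, and members whose probes disagree where 1 is called; some genes this rule names are not reported here. The lists of related and marker genes, the members and the alternatives (normalization, background correction, filter, probe summary, replicate block, array weights, arrays left out) were chosen with earlier results of these data known. A split by protein length was not run, because no protein table was used here.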

Additional observations from a re-analysis of the deposited data

How the results depend on the processing

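With 2 arrays a group and 1 weak deficient LSK array, the precision for single genes is low. Of the summary results under the alternatives, 243 values stayed within the replicate spread or within 1.5 times the count and 23 moved. Of the values of named genes 934 kept direction and call. Part of these could not change: an array left out leaves the differences between other groups as they were. The replicate block leaves differences unchanged, and median scaling leaves the subunit shift unchanged. The tallies therefore overstate the stability. The LSK median was −1.92 after normexp correction, −0.66 under quantile normalization and −1.71 under median scaling; the median between deficient populations was 2.30, 0.59 and 2.22, and that between wild-type populations −0.020 under quantile normalization and 0.61 under median scaling. The count called between deficient populations was 26 after normexp correction, and 1 member was called between wild-type populations with every probe tested. The subunit shift in LSK was −0.040 in the deposited table, 0.43 with probes well above background on all arrays, −0.093 with the mean of probes and −0.014 with the mean over canonical genes. In GMP it was −0.14, −0.47 (mean of probes) and −0.033 (canonical mean, an alternative chosen after seeing the data), between wild-type populations 0.0091 (deposited table) and −0.016 (all arrays), and between deficient populations −0.18 (all arrays) and −0.31 (mean of probes). The deposited table was taken at the same probes, with each probe centred, and centring can change which gene is the median of a subunit. The causes of the other changes were not tested.

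Leaving out 1 array at a time leaves 1 array in a group, so only the ranges of the values are given here. The medians ranged from −1.11 to −1.07 in LSK, 0.033 to 0.73 in GMP, 0.080 to 0.49 between wild-type and 1.33 to 1.81 between deficient populations. The subunit shift ranged from 0.37 to 0.42 in LSK, 0.11 to 0.32 in GMP, 0.083 to 0.25 between wild-type and −0.12 to 0.096 between deficient populations. A lone array was assumed to vary like the other groups.

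No call reversed, but 24 values that were not called changed sign. After normexp correction this was Rps27a, averaged over both populations (−0.36). Under quantile normalization it was Rpl21 in LSK (−0.037). Under median scaling they were Rpl21 in LSK (−0.46) and, averaged, Rps27a (−0.018). With the mean of probes they were Rpl21 in LSK (−0.60) and, averaged, Rpl21 (−0.28), Rps27a (−0.041) and Rpsa (−0.15). When 1 array was left out at a time, the LSK difference ranged from −0.17 to 2.12 for Rpl10l, −0.54 to 2.63 for Rpsa, −0.21 to 0.49 for Rpl21, −1.51 to 1.13 for Rplp2, −0.71 to 0.64 for Rps24, −0.46 to 0.041 for Rps27a and −1.41 to 0.42 for Fau. The average of both populations ranged from −0.059 to 0.92 for Rps27a and −0.26 to 1.33 for Rpsa, and the wild-type difference of Rps20 from −0.74 to 0.067. Without both arrays that stand apart the values below 0 were Rpl10l (−0.17) and Rpsa (−0.54) in LSK and Rps27a (−0.17) and Rpsa (−0.26) averaged. None was called. The called values were those of the Rps24 probe, lost without each wild-type array (−5.4, −5.97, −5.98 and −5.4), and of Rps26 (−2.97) and Rpl23a (−3.07), gained in LSK without deficient LSK replicate 1, beside the members gained between deficient populations counted above.

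No label says that replicate numbers pair the samples, though same-numbered arrays of both genotypes shared a slide row. Deviations of same-numbered arrays correlated at −0.344 in LSK and 0.262 in GMP. The replicate block is balanced within each group, so apart from Rpsa, which lacks a value, it could not change the differences. The LSK median of −1.11 under it is therefore no check. With the block 0 members were called in each comparison by limma, and 16 in place of 21 passed an unadjusted p in LSK.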
